A study of Mus musculus with 10 samples.

Results

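The genes of Polycomb repressive complex 2 (PRC2) were followed through 10 RNA-seq libraries of mouse fetal oocytes. Members were taken by name and are Ezh1, Ezh2, Eed, Suz12, Jarid2, Mtf2, Phf1, Phf19, Aebp2 and Rbbp4, which are 10 of the 55536 genes in the count table. All 10 passed the filter on low counts, which kept 20317 genes, and all 10 were tested. The oocytes came from mouse fetuses at E14.5 (days of embryonic age) and fell into 3 genotypes: 4 libraries were Taf4b-deficient, which the labels call infertile, 4 were Taf4b-heterozygous and 2 were Taf4b-wildtype, both of which the labels call fertile. Taf4b encodes a germ cell-enriched subunit of TFIID, a general factor of transcription initiation, and the design asks how oocytes differ without it. In every genotype the germ cells carried a homozygous Oct4-EGFP transgene on a background labelled C57BL/6, and live EGFP-positive cells of dissociated gonads were collected by flow sorting after matings between Taf4b heterozygotes. The labels name no conditional allele, so effects within germ cells and effects of the surrounding ovary cannot be told apart. The labels do not say how many fetuses went into a library, and p-values therefore describe only the spread among them, part of which may be technical.

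PRC2 places methyl groups on lysine K27 of histone H3, and the trimethylated form (H3K27me3) marks genes that are kept silent during development. Ezh2 and Ezh1 are the alternative catalytic subunits, Eed and Suz12 complete the core with them, and Rbbp4 or its close relative Rbbp7 binds histones. Alternative sets of accessory proteins make different forms of the complex: the Polycomb-like proteins Phf1, Mtf2 and Phf19 define PRC2.1, while Jarid2 and Aebp2 define PRC2.2. In female germ cells PRC2 is known for restraining the timing of meiotic entry and for repressing developmental regulators while DNA methylation is low.

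Libraries held 28949924 to 44166320 reads in genes. The deficient libraries held 56.1, 62.1, 64.9 and 60.1 CPM of Taf4b itself, against 144, 223, 195 and 234 CPM for heterozygous and 152 and 207 CPM for wildtype ones, so every deficient library lay below every other, while Taf4b did not separate heterozygous from wildtype libraries. CPM here is a read count divided by the sum over tested genes and by the TMM scaling factor, on the usual counts-per-million scale. Of 9 germ cell markers Dazl had the highest median, with 2284 to 2780.0 CPM, followed by Ddx4 with 696 to 1085 CPM. Nanos3 had the lowest, with 4.79 to 18.6 CPM. Summed pregranulosa markers (11 genes) ran from 20.4 to 49.6 CPM. Of these Foxl2, which defines those cells, had the lowest median and did not exceed 1.56 CPM. Irx3 had the highest median and reached 12.8 CPM. Deficient replicates 2 and 4 and heterozygous replicate 3 stood apart with 87.4 to 454 CPM of Gm23935, an RNA that resembles ribosomal RNA, against 4146 to 5068 CPM in the other 7 libraries. Without those 3 libraries no member was called between genotypes either.

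PRC2 genes spanned a wide range of levels when set on the per-length TPM scale of the authors' deposited table. Rbbp4 was highest at 265 ± 35.2 TPM (SD, n = 10 libraries), followed by Eed at 147 ± 35.3 TPM, Phf19 at 112 ± 12.0 TPM, Jarid2 at 110.3 ± 22.1 TPM, Ezh2 at 107 ± 10.2 TPM and Mtf2 at 87.4 ± 23.2 TPM. Ezh1 stood at 52.5 ± 8.89 TPM, Suz12 at 37.0 ± 11.9 TPM, Aebp2 at 12.3 ± 3.19 TPM and Phf1 at 6.62 ± 1.75 TPM. Rbbp4 exceeded Eed in 10 of 10 libraries, and Suz12 exceeded Aebp2 in 10 of 10 without any overlap of their ranges. Phf19, Jarid2 and Ezh2 could not be ordered: Phf19 exceeded Jarid2 in 6 libraries and Jarid2 exceeded Ezh2 in 3. Eed exceeded Phf19 in 8 libraries, Ezh2 exceeded Mtf2 in 8, and Mtf2 exceeded Ezh1 and Ezh1 exceeded Suz12 in 9 each.

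**Figure D1:**
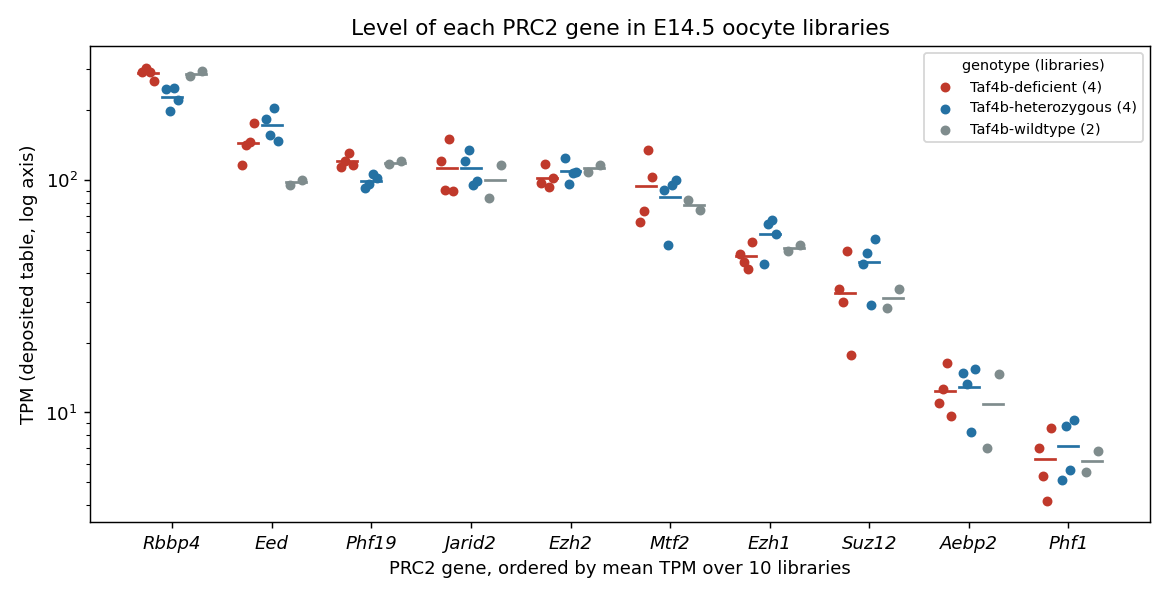
TPM on a log axis for the 10 PRC2 genes, ordered by mean; each dot is 1 library and each line the mean of a genotype, with Taf4b-deficient libraries left, heterozygous in the middle and wildtype right. Rbbp4 sits at the top with 198 to 305 TPM and Phf1 at the bottom with 4.18 to 9.26 TPM, and within most genes the genotypes overlap.

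Levels of most members varied less between libraries than the median tested gene, without matching for level. In mean TPM the members stood between percentile 48.3 of tested genes, for Phf1, and percentile 96.8, for Rbbp4. Ezh1 and Ezh2 stood at percentiles 80.9 and 90.4, and the part of level in the spread was not tested. The SD of log2 CPM over the 10 libraries was 0.14 for Ezh2 and 0.16 for Ezh1, lower than in all but 4.8% and 8.6% of tested genes, against a median of 0.43 over all tested genes. Suz12 varied most, with an SD of 0.51, and was the only member above that median. Its highest library held 3.33 times the CPM of its lowest.

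No member was called in any of the 3 comparisons of genotypes, a call being a Benjamini-Hochberg adjusted p under 0.05 over all 20317 genes in edgeR's quasi-likelihood test. Calls were rare over the whole transcriptome too, at 0.0148% of genes between deficient and heterozygous oocytes, 0% between deficient and wildtype oocytes and 0.00492% between heterozygous and wildtype oocytes. Taf4b itself was called for deficient over heterozygous oocytes, at a log2 change of -1.71 (SE 0.17, adjusted p = 0.0118). For deficient over wildtype oocytes it was at -1.56 (SE 0.19, adjusted p = 0.113) and not called. Between deficient and heterozygous oocytes 2 members, Phf19 and Rbbp4, had an unadjusted p under 0.05 in edgeR, in a background of 11.9% of genes. Between deficient and wildtype oocytes it was 1 member, Eed, against 743 genes or 3.66%, and DESeq2 called no member and 1 gene in all. Between heterozygous and wildtype oocytes it was 3 members, Phf19, Rbbp4 and Eed, against 8.3% of genes. The median log2 change of the 10 members was -0.01, 0.01 and -0.02 in these comparisons, against -0.05, 0.00 and 0.02 over all genes. With 4 libraries against 4 or 2, intervals of single members were wide, and the values below are read against them.

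**Figure D2:**
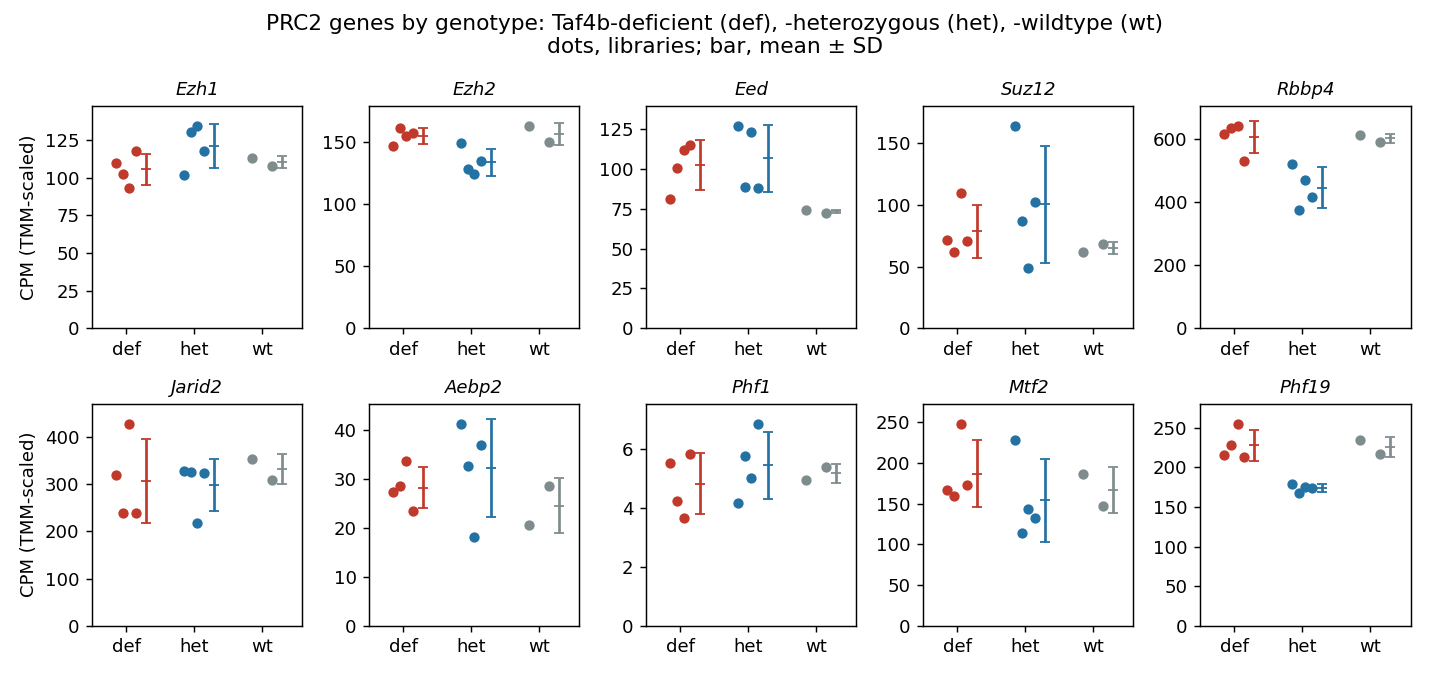
CPM of each PRC2 gene on axes that start at 0, with libraries as dots and the mean ± SD as bars, for Taf4b-deficient (def, n = 4), heterozygous (het, n = 4) and wildtype (wt, n = 2) oocytes. For Phf19 and Rbbp4 the 4 heterozygous dots lie below all deficient and wildtype dots, and for Eed both wildtype dots lie below all others.

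Among the catalytic subunits, Ezh2 was the more abundant per length in every library. Ezh2 (ENSMUSG00000029687; chromosome 6, 47530139 to 47595341, minus strand of GRCm38, 20 exons in its longest coding transcript) had 147, 162, 155 and 157 CPM in deficient libraries, 149, 128, 124 and 135 CPM in heterozygous and 163 and 150.3 CPM in wildtype ones. In CPM all heterozygous libraries lay below both wildtype libraries, and deficient libraries overlapped both other genotypes. The log2 change was 0.21 (SE 0.10, adjusted p = 0.444) for deficient over heterozygous, -0.01 (SE 0.13, adjusted p = 1) for deficient over wildtype and -0.22 (SE 0.13, adjusted p = 0.719) for heterozygous over wildtype. The first of these turned to -0.09 on the TPM scale, so no direction is given for it.

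Ezh1 (ENSMUSG00000006920; chromosome 11, 101191115 to 101226463, minus strand, 21 exons) encodes the catalytic subunit that is best known from cells that have stopped dividing. It had 109, 102, 93.4 and 117 CPM in deficient libraries, 102, 131, 134 and 117 CPM in heterozygous ones and 113 and 108 CPM in wildtype ones, and the 3 genotypes overlapped. Its log2 change was -0.19 (95% interval -0.47 to 0.08, adjusted p = 0.525) for deficient over heterozygous oocytes and -0.06 (95% interval -0.40 to 0.27, adjusted p = 1) for deficient over wildtype oocytes. The TPM ratio of Ezh1 to Ezh2 was 0.493, 0.377, 0.443 and 0.532 in deficient libraries, 0.351, 0.673, 0.623 and 0.545 in heterozygous libraries and 0.458 and 0.451 in wildtype libraries. The 3 heterozygous libraries with the highest meiotic stage index had the 3 highest ratios, and heterozygous replicate 1, the fourth, had the lowest of all 10. In CPM the same 3 heterozygous libraries again had the highest ratios, at 0.87 to 1.08, but heterozygous replicate 1, at 0.68, lay above deficient replicates 2 and 3, at 0.63 and 0.60.

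The genes whose log2 CPM was most like that of Ezh1 over the 10 libraries were Cog7 (Pearson r = 0.983), Qrich1 (r = 0.980) and Cep85 (r = 0.966), out of 10095 genes with a mean of at least 5 CPM. For Ezh2 they were Ddx46 (r = 0.956), Aunip (r = 0.953) and Nsa2 (r = 0.944). These are descriptions of 10 libraries that share genotype, litter, depth and stage differences.

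Of the other core subunits, Eed, which binds H3K27me3 and stimulates the enzyme, was lowest in wildtype oocytes. Eed (ENSMUSG00000030619; chromosome 7, 89954654 to 89980983, minus strand, 12 exons) had 81.0, 101, 112 and 116 CPM in deficient libraries, 127, 89.0, 123 and 88.0 CPM in heterozygous ones and 74.2 and 72.6 CPM in wildtype ones. Both wildtype libraries lay below all 8 others, in CPM and in TPM. Groups did not overlap in 12.6% of genes between deficient and wildtype oocytes and in 15.8% between heterozygous and wildtype oocytes, so such a pattern was common in a comparison with 2 libraries. The log2 change was 0.48 (95% interval 0.03 to 0.94, adjusted p = 1) for deficient over wildtype and 0.54 (95% interval 0.08 to 1.00, adjusted p = 0.451) for heterozygous over wildtype, and neither was a call. Deficient and heterozygous libraries overlapped, with a log2 change of -0.06 (95% interval -0.42 to 0.30, adjusted p = 0.883).

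Suz12, the zinc-finger subunit that holds the core together, was the least even member. Suz12 (ENSMUSG00000017548; chromosome 11, 79993106 to 80034123, plus strand, 16 exons) had 71.5, 61.7, 109.8 and 70.8 CPM in deficient libraries, 163, 86.6, 49.1 and 102 CPM in heterozygous ones and 61.6 and 68.2 CPM in wildtype ones. The heterozygous libraries held both the highest and the lowest value, and all genotypes overlapped. The log2 change was -0.36 (95% interval -1.04 to 0.33, adjusted p = 0.622) for deficient over heterozygous and 0.27 (95% interval -0.57 to 1.12, adjusted p = 1) for deficient over wildtype. The count and TPM tables placed its libraries differently: TPM per CPM was 0.249 in deficient replicate 4 and 0.266 in heterozygous replicate 1, against 0.453 to 0.594 in the other 8 libraries. In TPM, deficient replicate 4 was therefore the lowest library at 17.7 TPM and heterozygous replicate 1 stood at 43.6 TPM, below heterozygous replicates 2 and 4.

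Rbbp4, the histone-binding subunit that PRC2 shares with other chromatin complexes, was lower in heterozygous oocytes than in both other genotypes without reaching a call. Rbbp4 (ENSMUSG00000057236; chromosome 4, 129307100 to 129335370, minus strand, 12 exons) had 617, 637, 641 and 532 CPM in deficient libraries, 523, 375, 471 and 416 CPM in heterozygous ones and 613 and 592 CPM in wildtype ones. No heterozygous library reached the lowest deficient or wildtype library, in CPM or in TPM. The log2 change was 0.44 (SE 0.12, adjusted p = 0.346) for deficient over heterozygous, -0.43 (SE 0.15, adjusted p = 0.375) for heterozygous over wildtype and 0.01 (95% interval -0.32 to 0.34, adjusted p = 1) for deficient over wildtype. Leaving out heterozygous replicate 1, the first of these was 0.57 with an adjusted p of 0.0452 in edgeR, which then called 519 genes in all, or 2.6%. Rbbp7, which can take its place, had 751, 845, 736 and 819 TPM in deficient, 755, 724, 1003 and 652 TPM in heterozygous and 746 and 759 TPM in wildtype libraries, above Rbbp4 in every library. Rbbp4 has a processed pseudogene, Gm4800, with 90.9% identity over 1280 bases, to which a mean of 31.7 reads was assigned, against 18640 reads for Rbbp4.

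Phf19, a Polycomb-like protein whose Tudor domain reads histone H3 lysine K36 methylation, showed the same order of genotypes. Phf19 (ENSMUSG00000026873; chromosome 2, 34893757 to 34914026, minus strand, 15 exons) had 215, 228, 255 and 213 CPM in deficient libraries, 179, 168, 175 and 174 CPM in heterozygous ones and 234 and 216 CPM in wildtype ones. The heterozygous libraries lay close together and below all 6 others. The log2 change was 0.39 (SE 0.10, adjusted p = 0.321) for deficient over heterozygous, -0.37 (SE 0.12, adjusted p = 0.34) for heterozygous over wildtype and 0.02 (95% interval -0.26 to 0.29, adjusted p = 1) for deficient over wildtype. DESeq2 in place of edgeR called the first of these (0.41, adjusted p = 0.0107) and the second (-0.39, adjusted p = 0.0456), and it called 1.1% and 2.98% of all genes there.

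Phf19 and Rbbp4 were the only members whose deficient and heterozygous libraries did not overlap, in a background of 5.97% of genes, or 3.31% with the deficient libraries higher. With no overlap, deficient libraries had to lie above heterozygous ones within any litter date that held both, so the dates give no further test. The first date held deficient replicates 1 and 2 and heterozygous replicate 4. The second date held no heterozygous library. The third held deficient replicate 4 and heterozygous replicates 1 to 3 but no wildtype library, so genotype and litter date are partly confounded. With meiotic stage as a covariate the log2 change of deficient over heterozygous oocytes was 0.35 for Phf19 (adjusted p = 0.243) and 0.38 for Rbbp4 (adjusted p = 0.285). Macrophage markers were also lowest in heterozygous oocytes: 10 of 10 were higher in deficient than in heterozygous oocytes and 10 of 10 lower in heterozygous than in wildtype oocytes. Over all genes 44.9% were higher in the first comparison and 52.6% in the second. For deficient over wildtype oocytes 10 of 10 were higher too, with a median log2 change of 0.45, against 50.6% of all genes. Phf19 and Rbbp4 were at 0.02 and 0.01 there. The summed level of the macrophage markers was 16.1 to 27.7 CPM in deficient, 7.02 to 13.4 CPM in heterozygous and 14.49 to 17.8 CPM in wildtype libraries. Of those markers Csf1r did not exceed 5.70 CPM and Ptprc did not exceed 1.07 CPM, and none was at 0 in all libraries. Genes of DNA replication, whose products work in dividing cells, were higher in deficient than in heterozygous oocytes in 26 of 36 cases, with a median log2 change of 0.16, against -0.05 over all genes, and no call. Their summed level was 8634 to 10377 CPM in deficient, 7681 to 10288 CPM in heterozygous and 8946 to 10017 CPM in wildtype libraries. The part of either in the Phf19 and Rbbp4 values was not tested. In bulk libraries, fewer cells of a type and less RNA per cell cannot be told apart.

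The proximal promoters of Rbbp4, Phf19 and Ezh2 are shown because for each of them all heterozygous libraries lay below both wildtype libraries in CPM, as for 6.64% of all genes. For Ezh2 this did not hold in TPM, where heterozygous replicate 1 had 125 TPM, against 109 and 117 TPM in the wildtype libraries. Each is the 250 bases before the RefSeq transcription start in the GRCm38.p6 assembly, read 5′ to 3′ on the gene's own minus strand. For Ezh2 and Phf19 this start lies downstream of the 5′ end of the gene span given above, at 47595341 and 34914026. The Ezh2 window therefore falls within its gene span, and the Phf19 window partly does. Capitals mark motif matches on either strand, and overlapping matches run together. The CCAAT box was searched by its own name's letters and the GC box as GGGCGG. The TATA box was searched as TATAAA. The E2F-like motif was searched as TTCCCGC. A further spelling of the E2F-like motif was TTGGCGC.
Rbbp4, chr4:129335371-129335620: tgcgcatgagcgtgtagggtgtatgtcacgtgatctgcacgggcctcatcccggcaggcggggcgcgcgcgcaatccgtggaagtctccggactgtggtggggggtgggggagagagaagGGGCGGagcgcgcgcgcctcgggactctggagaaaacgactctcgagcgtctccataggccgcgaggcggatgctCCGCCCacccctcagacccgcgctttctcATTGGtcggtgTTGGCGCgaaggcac
Phf19, chr2:34913977-34914226: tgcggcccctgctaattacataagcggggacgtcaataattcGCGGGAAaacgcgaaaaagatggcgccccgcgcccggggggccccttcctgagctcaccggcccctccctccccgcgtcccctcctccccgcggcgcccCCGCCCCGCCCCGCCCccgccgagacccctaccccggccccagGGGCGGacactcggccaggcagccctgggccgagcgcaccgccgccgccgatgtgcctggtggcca
Ezh2, chr6:47595031-47595280: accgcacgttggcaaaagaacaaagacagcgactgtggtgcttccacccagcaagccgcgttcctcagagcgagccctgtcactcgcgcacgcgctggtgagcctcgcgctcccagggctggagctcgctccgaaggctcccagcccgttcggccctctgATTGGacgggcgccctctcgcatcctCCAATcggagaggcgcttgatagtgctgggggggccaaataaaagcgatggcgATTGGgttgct
The Rbbp4 window held 1 CCAAT box, 2 GC boxes and 1 E2F-like match, whose last base lies at position -9 from the start. The Phf19 window held 4 GC boxes, 3 of them overlapping, and 1 E2F-like match. The Ezh2 window held 3 CCAAT boxes and no other match. Among the 32851 mouse promoters in the table, windows of the same length held a CCAAT box in 33.8%, a GC box in 32.7%, a TATA box in 12.4% and an E2F-like match in 5.6%. These are matches of letters, and binding was not measured.

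Of the PRC2.2 subunits, Jarid2, a DNA-binding protein that recruits the complex, had 320.5, 239.8, 429 and 239 CPM in deficient libraries, 329, 326, 217 and 324 CPM in heterozygous ones and 354 and 309 CPM in wildtype ones. In CPM, deficient libraries spread over a wider range than the others and enclosed both other genotypes except for heterozygous replicate 3, the lowest of all 10. In TPM the lowest was wildtype replicate 1, at 83.9 TPM. Heterozygous replicate 3, at 95.3 TPM, lay within the deficient range of 89.6 to 150.5 TPM there. Jarid2 (ENSMUSG00000038518; chromosome 13, 44729474 to 44921643, plus strand, 18 exons) had a log2 change of 0.04 (95% interval -0.41 to 0.49, adjusted p = 0.943) for deficient over heterozygous oocytes and of -0.11 (95% interval -0.66 to 0.44, adjusted p = 1) for deficient over wildtype oocytes. Both signs turned under other settings, among them the TPM scale. Aebp2 (ENSMUSG00000030232; chromosome 6, 140622663 to 140678472, plus strand, 8 exons), a zinc-finger cofactor, had 27.3, 28.5, 33.8 and 23.5 CPM in deficient libraries, 41.3, 32.8, 18.2 and 37.0 CPM in heterozygous ones and 20.6 and 28.6 CPM in wildtype ones, which overlapped. Its log2 change was -0.19 (95% interval -0.72 to 0.34, adjusted p = 0.735) for deficient over heterozygous oocytes and 0.20 (95% interval -0.46 to 0.86, adjusted p = 1) for deficient over wildtype oocytes.

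Of the other Polycomb-like subunits, Mtf2, which binds unmethylated CpG-rich DNA, had 166, 159.5, 248 and 173 CPM in deficient libraries, 228, 113, 143 and 132 CPM in heterozygous ones and 187 and 147 CPM in wildtype ones. Deficient replicate 3 and heterozygous replicate 1 were the highest, and the genotypes overlapped. Mtf2 (ENSMUSG00000029267; chromosome 5, 108065674 to 108109004, plus strand, 15 exons) had a log2 change of 0.28 (95% interval -0.22 to 0.77, adjusted p = 0.601) for deficient over heterozygous oocytes and of 0.16 (95% interval -0.45 to 0.77, adjusted p = 1) for deficient over wildtype oocytes. Single libraries moved the first of these: it was 0.57 (adjusted p = 0.0838) without heterozygous replicate 1, 0.15 (adjusted p = 0.907) without heterozygous replicate 2 and 0.13 (adjusted p = 0.881) without deficient replicate 3. With the stage index as a covariate it was 0.03 (adjusted p = 0.92). Phf1 (ENSMUSG00000024193; chromosome 17, 26933052 to 26937908, plus strand, 14 exons) had 5.54, 4.25, 3.68 and 5.86 CPM in deficient libraries, 4.16, 5.77, 5.04 and 6.87 CPM in heterozygous ones and 4.95 and 5.41 CPM in wildtype ones, with no separation of genotypes. Its level is uncertain: 1370 exonic bases are shared with Cuta on the opposite strand, to which a mean of 3348 reads was assigned, against 179 for Phf1, and no source used here gives the strand setting of the counting.

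The Polycomb-like genes were led by Phf19 and Mtf2 together. Phf19 made 48.3% to 61.1% of their summed TPM in deficient, 48.3% to 61.1% in heterozygous and 57.2% to 59.9% in wildtype libraries. Phf1 stayed between 1.55% and 5.51% over all 10 libraries. The summed TPM of the 3 Polycomb-like genes was 1.07 to 2.30 times that of Jarid2 and Aebp2, with 1.42 to 2.30 times in deficient, 1.07 to 2.01 times in heterozygous and 1.54 to 2.25 times in wildtype libraries. These ranges overlapped between genotypes.

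Leaving out the 3 libraries low in Gm23935 moved several uncalled log2 changes by more than 1.5 times. This limit is a ratio, so a change near 0 passes it with a small move. For deficient over heterozygous oocytes this held for Ezh2 (0.14 without them, 0.21 with them), Jarid2 (0.20 and 0.04) and Phf1 (-0.28 and -0.18). For deficient over wildtype oocytes it held for every member but Eed: without them Suz12 was at 0.48, Mtf2 at 0.31, Aebp2 at 0.32, Jarid2 at 0.18, Ezh1 at -0.12, Ezh2 at -0.05, Phf19 and Rbbp4 at 0.07 each and Phf1 at -0.16, against -0.10 for Phf1 with them. For heterozygous over wildtype oocytes it held for Aebp2 (0.60 without them, 0.39 with them), Ezh1 (0.08 and 0.13), Jarid2 (-0.02 and -0.15) and Phf1 (0.12 and 0.07). With all libraries, Rbbp4, Phf19 and Ezh2 were at 0.01, 0.02 and -0.01 for deficient over wildtype oocytes. Their moves were smaller than their SEs of 0.15, 0.12 and 0.13. The direction turned for Jarid2 in deficient over wildtype oocytes, and none of the genotype changes without the 3 libraries was a call. The stage slopes of Jarid2, Aebp2 and Eed moved likewise, to -0.04, -0.07 and -0.16. Of these slopes only that of Eed was then a call (adjusted p = 0.00315 in edgeR).

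**Figure D3:**
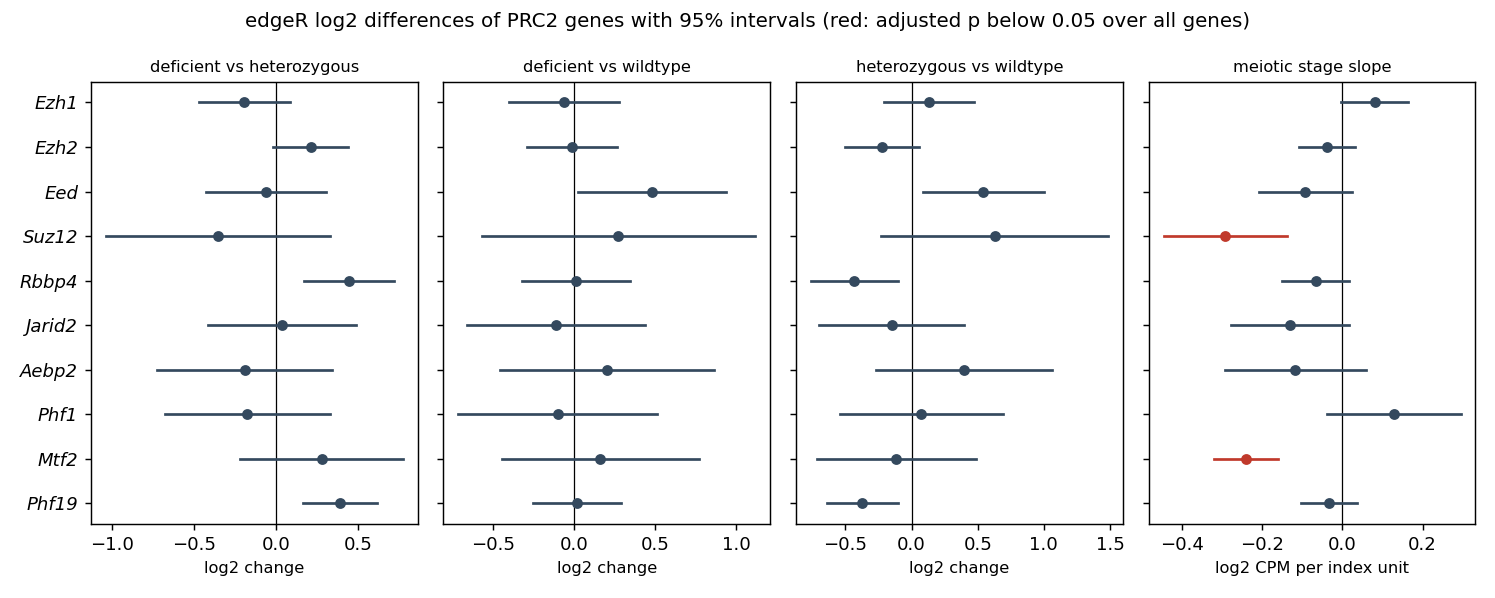
Fitted log2 change of each PRC2 gene with its 95% interval, for deficient over heterozygous, deficient over wildtype and heterozygous over wildtype oocytes, and, at right, the slope of log2 CPM per unit of the meiotic stage index; red marks an adjusted p under 0.05. No genotype comparison has a red point, and the stage slope has 2, Suz12 at -0.29 and Mtf2 at -0.24.

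The libraries differed in their balance of meiotic and pluripotency transcripts. A stage index was taken for each library as the mean log2 CPM of 30 meiotic recombination genes minus that of 21 pluripotency and early germ cell genes, none of them a PRC2 member. It was 0.25, 1.23, -1.62 and -0.06 in deficient libraries, -1.55, 2.20, 1.90 and 1.77 in heterozygous libraries and -0.05 and 0.41 in wildtype libraries. Deficient replicate 3 and heterozygous replicate 1 had the lowest index, and the other 3 heterozygous libraries the highest. The slope of each gene on the index was fitted in edgeR with genotype in the model.

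Suz12 and Mtf2 fell with the stage index, and no other member was called. The slope of Mtf2 was -0.24 (SE 0.04, adjusted p = 0.000982) in log2 CPM per unit of the index, and that of Suz12 was -0.29 (SE 0.07, adjusted p = 0.0119). This is 2 of 10 members, against a background of 25% of all genes, or 11.9% with a negative slope. The share of members is thus near that of genes in general, of which 5076 followed the index. Mtf2 stood at 248 and 228 CPM in the 2 libraries of lowest index, deficient replicate 3 and heterozygous replicate 1, and between 113 and 187 CPM in the other 8. Suz12 stood at 109.8 and 163 CPM in those 2 libraries and between 49.1 and 102 CPM in the others.

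**Figure D4:**
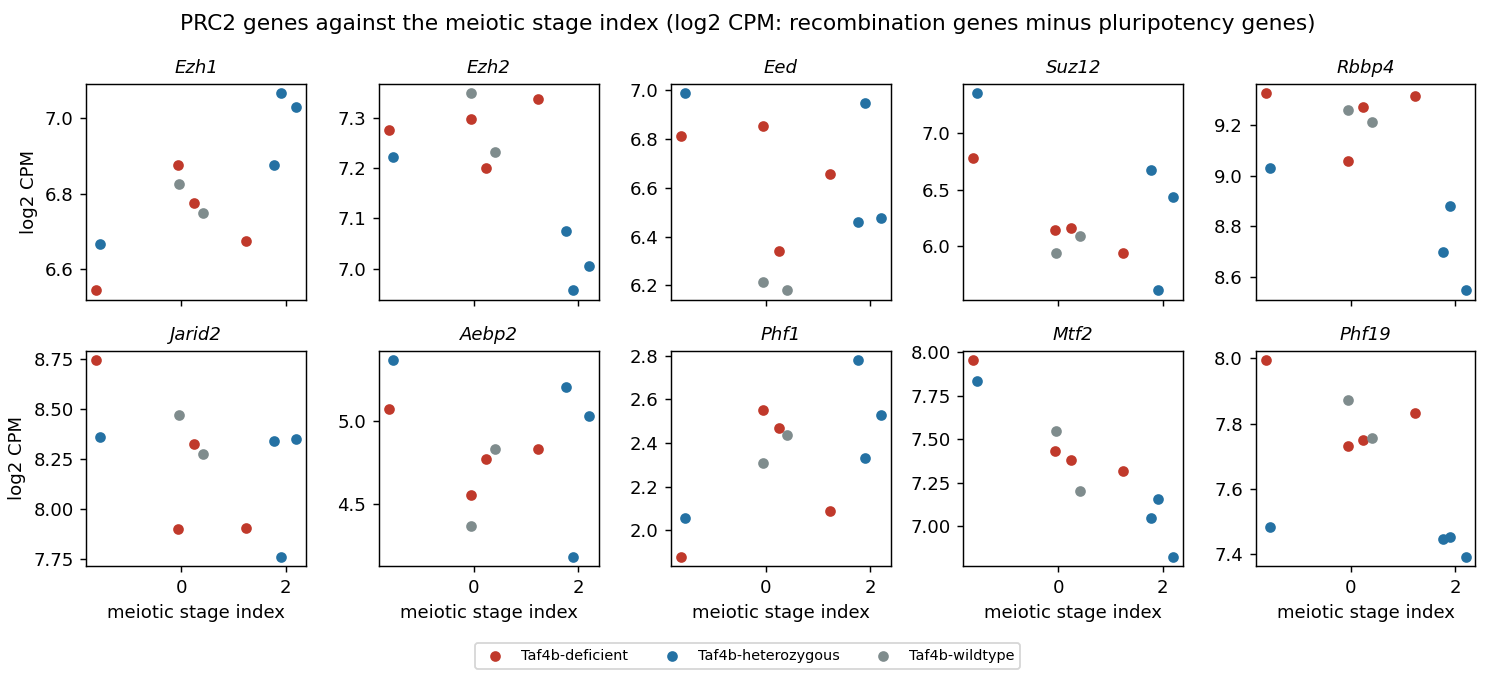
log2 CPM of each PRC2 gene against the meiotic stage index, 1 dot per library, coloured by Taf4b genotype (deficient, heterozygous, wildtype). The 2 libraries at the left, with index values of -1.62 and -1.55, hold the highest values of Mtf2 and Suz12, and the other 8 libraries lie between -0.06 and 2.20.

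Both calls were lost without heterozygous replicate 1. Without heterozygous replicate 1 the slopes were -0.26 for Mtf2 (adjusted p = 0.0831) and -0.28 for Suz12 (adjusted p = 0.284), no member was called, and 686 genes, or 3.43%, were called in all. Without both of the lowest-index libraries the slopes were -0.22 for Mtf2 (adjusted p = 0.825) and -0.14 for Suz12 (adjusted p = 0.961), and no gene of the transcriptome was called. On the TPM scale in limma the slopes were -0.16 for Mtf2 (adjusted p = 0.226) and -0.08 for Suz12 (adjusted p = 0.664). Slopes were steeper per unit of other indices, each with a narrower range: with the recombination list alone they were -0.44 for Mtf2 and -0.54 for Suz12, and with the pluripotency list alone, its sign turned, -0.51 and -0.62. With the replicate number as a block Suz12 was at -0.40 (adjusted p = 0.0361). Without a genotype term Suz12 was at -0.20 (adjusted p = 0.105) and no longer called, and Ezh1, at 0.09 (adjusted p = 0.0474), was. Without the 3 libraries low in Gm23935, 5 members were called in a background of 34.1%: Suz12 at -0.24 (adjusted p = 0.000636), Mtf2 at -0.27 (adjusted p = 0.000155), Eed at -0.16 (adjusted p = 0.00315), Rbbp4 at -0.10 (adjusted p = 0.0217) and Ezh1 at 0.09 (adjusted p = 0.0437).

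The other members had smaller slopes or wider errors. The slope was 0.08 (95% interval -0.0024 to 0.16, adjusted p = 0.147) for Ezh1, -0.04 (95% interval -0.11 to 0.03, adjusted p = 0.412) for Ezh2 and -0.09 (95% interval -0.21 to 0.02, adjusted p = 0.234) for Eed. It was -0.07 (95% interval -0.15 to 0.02, adjusted p = 0.235) for Rbbp4 and -0.03 (95% interval -0.10 to 0.04, adjusted p = 0.475) for Phf19. Jarid2 and Aebp2 had slopes of -0.13 and -0.12, and Phf1 one of 0.13, with adjusted p-values of 0.187, 0.319 and 0.243. Ezh1 and Phf1 were thus the only members with a positive slope, and neither was a call.

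The promoters of Mtf2 and Suz12 are shown because these members carry the stage slope. Both are again the 250 bases before the RefSeq start in GRCm38.p6, on the plus strand, with capitals as above.
Mtf2, chr5:108065424-108065673: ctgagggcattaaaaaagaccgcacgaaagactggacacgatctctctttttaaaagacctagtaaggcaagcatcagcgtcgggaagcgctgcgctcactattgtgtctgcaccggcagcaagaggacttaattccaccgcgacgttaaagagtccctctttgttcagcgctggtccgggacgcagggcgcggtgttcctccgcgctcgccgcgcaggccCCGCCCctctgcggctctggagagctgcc
Suz12, chr11:79992856-79993105: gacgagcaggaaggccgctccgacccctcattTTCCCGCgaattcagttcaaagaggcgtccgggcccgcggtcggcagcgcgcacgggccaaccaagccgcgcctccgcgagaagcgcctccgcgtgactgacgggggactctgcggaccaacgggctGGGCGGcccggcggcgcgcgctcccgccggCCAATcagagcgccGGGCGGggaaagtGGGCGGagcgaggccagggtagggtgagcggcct
The Mtf2 window, the one of 2 listed starts nearest to the gene's 5′ end, held 1 GC box and no other match. The Suz12 window held 3 GC boxes, 1 CCAAT box and 1 E2F-like match. E2F-like matches were in the windows of Suz12, Phf19 and Rbbp4 and in none of the other 7 windows, against 5.6% of all promoters. Only 1 window was searched per gene, while Jarid2 has 2 listed starts and Aebp2 has 3.

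Further cofactors of PRC2 held no call between genotypes. Of 5 genes (Rbbp7, Epop, Lcor, Lcorl and AU022751, the symbol under which the files hold Ezhip), none was called in the comparisons of genotypes, with median log2 changes of -0.05 for deficient over heterozygous, 0.07 for deficient over wildtype and -0.05 for heterozygous over wildtype oocytes. AU022751, the gonad-expressed inhibitor of PRC2 activity, stood between 39.2 and 82.3 TPM and rose with the stage index, with a slope of 0.17 (SE 0.04, adjusted p = 0.0108), as the only 1 of the 5 called, against 25% of all genes. Lcorl, which the naming rule picked for deficient over heterozygous oocytes, had a log2 change of -0.43 (SE 0.21, adjusted p = 0.442), and Epop, which it picked for the other comparisons, had 0.33 (SE 0.24, adjusted p = 1) for deficient over wildtype and 0.47 (SE 0.24, adjusted p = 0.673) for heterozygous over wildtype oocytes.

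Polycomb repressive complex 1, which reads H3K27me3 in its canonical form and ubiquitinates histone H2A, held no call between genotypes either. Of 14 canonical genes 10 were higher and 4 lower in deficient than in wildtype oocytes, with a median log2 change of 0.13, and 11 were higher and 3 lower in heterozygous than in wildtype oocytes, with a median of 0.24. Bmi1, a core Pcgf subunit, had log2 changes of 0.75 (SE 0.24, adjusted p = 1) and 0.89 (SE 0.24, adjusted p = 0.247) there. Ring1, a catalytic subunit, had -0.37 (SE 0.15, adjusted p = 0.4) for deficient over heterozygous oocytes. On the stage index 5 of the 14 were called, or 35.7%, against 25% of all genes. Scml2, at 0.28 (SE 0.06, adjusted p = 0.00511), Cbx8, at 0.23 (SE 0.06, adjusted p = 0.0249), and Scmh1, at 0.14 (SE 0.04, adjusted p = 0.0258), rose, while Pcgf2, at -0.29 (SE 0.05, adjusted p = 0.00151), fell. Cbx2, a reader of H3K27me3 that falls outside the naming rule and was added after its values were seen, fell too, at -0.11 (SE 0.04, adjusted p = 0.0421).

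The variant forms of PRC1 had 17 genes, with 7 higher and 10 lower in deficient than in heterozygous oocytes and none called. Fbrsl1, a cofactor of one such form, had a log2 change of -0.66 (SE 0.25, adjusted p = 0.383) for deficient over heterozygous and 1.37 (SE 0.33, adjusted p = 0.243) for heterozygous over wildtype oocytes. Bcorl1 had -0.97 (SE 0.37, adjusted p = 1) for deficient over wildtype oocytes. On the stage index 2 of the 17 were called, against 25% of all genes: Pcgf1, at 0.30 (SE 0.05, adjusted p = 0.00207), rose and E2f6, a repressor that recruits such a complex to germ cell genes, fell at -0.24 (SE 0.04, adjusted p = 0.00138).

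Enzymes that oppose Polycomb silencing (H3K27 demethylases, H2A deubiquitinase subunits and methyltransferases of active chromatin) held no call between genotypes. Of 13 genes 12 were lower in deficient than in heterozygous oocytes, with a median log2 change of -0.36, against -0.05 over all genes. Heterozygous replicates 2 and 4 stood apart there, with a mean log2 CPM of 6.17 and 6.14 over the 13 genes. Deficient libraries ranged from 5.27 to 5.84 on that scale, and heterozygous replicates 1 and 3, at 5.67 and 5.52, lay within that range. Nsd2, an H3K36 methyltransferase, had -0.38 (SE 0.13, adjusted p = 0.379) there and 0.43 (SE 0.16, adjusted p = 0.435) for heterozygous over wildtype oocytes. Nsd1 had -0.43 (SE 0.30, adjusted p = 1) for deficient over wildtype oocytes, where 10 of 13 were lower with a median of -0.09. Kdm6b, an H3K27 demethylase, rose with the stage index at 0.74 (SE 0.10, adjusted p = 0.000591) as the only 1 of the 13 called, in the background of 25%.

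Among classical targets of PRC2, most Hox genes were too low to be tested. Of 39 Hox genes 11 passed the filter on low counts, and the summed level of those 11 stayed between 4.37 and 12.4 CPM over the 10 libraries. None of the 11 was called between genotypes. The gene with the smallest p was Hoxb9 for deficient over heterozygous oocytes, with a log2 change of 0.58 (SE 0.27, adjusted p = 0.426), and Hoxd1 for both others, with 0.99 (SE 0.60, adjusted p = 1) for deficient over wildtype and 1.87 (SE 0.61, adjusted p = 0.338) for heterozygous over wildtype. Hoxa3, at 1.28 (SE 0.30, adjusted p = 0.0108), Hoxd8, at 0.50 (SE 0.16, adjusted p = 0.0462), and Hoxd1, at 0.44 (SE 0.12, adjusted p = 0.0226), rose with the stage index, at mean levels of 0.28, 1.09 and 1.88 CPM over the libraries. They are 27.3% of the 11, against 25% of all genes. Of 24 other developmental regulators 13 passed the filter, with a summed level between 35.8 and 55.5 CPM, and none was called between genotypes. Foxa2 had -0.51 (SE 0.28, adjusted p = 0.475) for deficient over heterozygous oocytes, and Irx2 had 1.21 (SE 0.55, adjusted p = 1) for deficient over wildtype and 1.55 (SE 0.56, adjusted p = 0.411) for heterozygous over wildtype oocytes. Sox17, at -0.58 (SE 0.19, adjusted p = 0.0475), fell with the stage index, at a mean level of only 0.48 CPM. Of these 13 regulators 15.4% were called on the index, against 25% of all genes. These slopes share the 2 lowest-index libraries with those of Mtf2 and Suz12, and no gene was called without both.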

How the data were processed

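Per the submitters' processing notes, the tools used were HISAT2 2.1.0 with the GRCm38 build, SAMtools 1.9, FastQC 0.11.5, Trim Galore 0.5.0, StringTie 1.3.3b, featureCounts of Subread 1.6.2 and DESeq2. The deposited table of raw counts per gene was used as it stands, the deposited TPM table gives per-length levels set by the authors, and the authors' deposited comparison table holds log2 fold changes with their standard errors, a test statistic (a score), p-values and a mean normalized signal, whose contrast is not given in the sources used here.

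All 10 libraries entered 1 edgeR 4.0.16 quasi-likelihood fit in R 4.3.3 with TMM scaling, filterByExpr by genotype and 3 group means. The stage slope came from a fit with genotype and the continuous index. SE is the log2 change over the root of F, and 95% intervals use the test's degrees of freedom. DESeq2 1.42.0 and limma 3.58.1 (log2 of TPM plus a pseudocount of 0.1 or 1, mean TPM of at least 1) were alternatives. The members and lists were chosen with earlier results of these data known. The naming rule took the members, Taf4b, per list and comparison up to 4 called genes or else the 1 with the smallest p, and 3 genes most like Ezh1 and Ezh2. Cuta and Gm4800, which overlap or resemble members, and Rbbp7, Cbx2, Dazl, Ddx4, Nanos3, Foxl2, Irx3, Csf1r and Ptprc fall outside it and were named after their values were seen. Every pair of libraries differed beyond sampling noise, with a lowest chi-square of 10.6 per degree of freedom. One gene that the rule names is not reported here. The scripts were tested on simulated data. Intervals cover the spread between libraries at these depths.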

Additional observations from a re-analysis of the deposited data

Results flagged for a closer look

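In groups of 4 libraries, 3 values lay apart from their group by a gap larger than Dixon's 95% critical share of the range. Jarid2 stood at 217 CPM in heterozygous replicate 3, against 324 to 329 CPM in the other heterozygous libraries. Mtf2 stood at 248 CPM in deficient replicate 3, against 159.5 to 173 CPM in the other deficient libraries. Neither gene was flagged in TPM, which was searched too. There Jarid2 stood at 95.3 TPM in heterozygous replicate 3, against 98.8 to 135 TPM in the other heterozygous libraries. Mtf2 stood at 135 TPM in deficient replicate 3, against 66.0 to 103 TPM in the other deficient libraries. The stage index of heterozygous replicate 1 was -1.55, against 1.77 to 2.20 in the other heterozygous libraries. The search covered 44 groups of values, and chance flags about 1 group in 20. Heterozygous replicate 3 is 1 of the 3 libraries low in Gm23935, and deficient replicate 3 had the lowest stage index of all libraries; their part in these values was not tested.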

How the results depend on the processing

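No PRC2 gene was called between genotypes in edgeR under any other scaling, filter, covariate or set of groups tried, except that Rbbp4 was called without heterozygous replicate 1 in the deficient over heterozygous comparison (0 to 1 members called over the libraries left out). DESeq2 called 1 member, Phf19, in that comparison and 1, again Phf19, in heterozygous over wildtype oocytes. On the stage slope Suz12 and Mtf2 were both called under 17 of 22 alternatives, single libraries left out included. Leaving out single libraries gave 0 to 2, leaving out the 3 libraries low in Gm23935 gave 5, leaving out the 2 libraries farthest from the median index gave 0, and limma on TPM gave 0. With the replicate number as a block it was 1 member, as Mtf2 had an adjusted p of 0.0623, and otherwise the block changed no call of a member. Over all genes the block left 0 calls in each comparison of genotypes and 1416 on the stage slope. Same-numbered libraries correlated from -0.42 to 0.38 over 8 pairs, so the numbers were not taken to pair libraries. Counts of called genes over the transcriptome ran from 0 to 519 for deficient over heterozygous (3 as reported; 519 without heterozygous replicate 1, 224 with DESeq2, 97 without the 3 libraries low in Gm23935), 0 to 12 for deficient over wildtype (0), 0 to 488 for heterozygous over wildtype (1; 488 with DESeq2) and 0 to 6709 for the stage slope (5076). In the first of these, calls split into 2 higher and 1 lower with TMM and into 5 higher and 1 lower with either other scaling, and the median change of all genes moved by less than 0.1 on the log2 scale.

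Signs turned for members that were not called. With limma on TPM (pseudocount 0.1; 1; 0.1 without a filter), deficient over heterozygous oocytes gave -0.090, -0.089 and -0.090 for Ezh2 and -0.014 each for Jarid2; deficient over wildtype gave -0.012, -0.0089 and -0.012 for Suz12 and 0.16 each for Jarid2; heterozygous over wildtype gave 0.17 each for Jarid2 and 0.076 each for Mtf2; and the Phf19 slope was 0.011. With litter date as a term, deficient over heterozygous gave 0.063 for Eed and -0.19 for Jarid2, and heterozygous over wildtype gave -0.024 for Ezh1, 0.17 for Jarid2 and -0.013 for Phf1. With the stage index as a covariate, Jarid2 was at -0.13 in deficient over heterozygous, Rbbp4 at -0.0033 in deficient over wildtype, and Mtf2 at 0.057 and Phf1 at -0.056 in heterozygous over wildtype oocytes. With upper quartile scaling, deficient over wildtype gave -0.011 for Phf19 and -0.016 for Rbbp4, and heterozygous over wildtype gave -0.0041 for Phf1. Deficient over wildtype further gave 0.011 for Ezh2 and -0.0073 for Phf19 with the replicate block, -0.0041 for Phf19 and -0.0090 for Rbbp4 with only the 2 groups compared, and 0.18 for Jarid2 without the 3 libraries low in Gm23935. Without the 2 libraries farthest from the median index, slopes were -0.13 for Ezh1, -0.33 for Phf1, 0.0024 for Phf19, 0.21 for Aebp2 and 0.041 for Rbbp4. Over single libraries left out, deficient over heterozygous ran from -0.14 to 0.073 for Eed, -0.54 to 0.031 for Suz12 and -0.14 to 0.14 for Jarid2. Deficient over wildtype ran from -0.075 to 0.047 for Ezh2, -0.0073 to 0.34 for Mtf2, -0.21 to 0.012 for Phf1, -0.046 to 0.074 for Phf19, -0.014 to 0.45 for Aebp2 and -0.019 to 0.068 for Rbbp4. Heterozygous over wildtype ran from -0.41 to 0.066 for Mtf2 and -0.086 to 0.15 for Phf1, and the Ezh2 slope from -0.058 to 0.0038. The cause of these turns was not tested. In all, 62 of 880 values of single members turned sign. Phf19 and Rbbp4 kept a positive change in deficient over heterozygous oocytes under all 22 alternatives, from 0.27 to 0.44 and from 0.34 to 0.57, with adjusted p from 0.0107 to 0.701 and from 0.0452 to 0.727.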

Other observations

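The authors' deposited table of fold changes lists 21049 genes, of which 3 had an adjusted p under 0.05, and 0 of the 10 PRC2 genes were among them. Its contrast is not named in the sources used here, but Taf4b has a log2 fold change of -1.66 in it. The largest members in the authors' deposited table were Eed at 0.24 (adjusted p = 0.817), Rbbp4 at 0.24 (adjusted p = 0.815), Mtf2 at 0.23 (adjusted p = 0.865) and Phf19 at 0.22 (adjusted p = 0.808). On the other side, the authors' deposited table gives -0.14 for Phf1, -0.12 for Suz12 and -0.10 for Ezh1.

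The deposited count and TPM tables agreed for some members and not for others. TPM per CPM varied by 1.17 times between the lowest and the highest library for Rbbp4 and for Ezh1 and by 1.22 times for Phf19. It varied by 1.44 times for Ezh2, 1.51 times for Aebp2, 1.85 times for Jarid2, 1.91 times for Mtf2 and 2.38 times for Suz12. For Jarid2 the lowest value was 0.237 in wildtype replicate 1, and for Mtf2 the highest were 0.755 and 0.671 in heterozygous replicates 4 and 3.

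Lars2, a mitochondrial tRNA ligase gene, showed a larger gap of this kind. It was chosen beside Gm23935 as a gene of reads that resemble ribosomal RNA. Its counts ran from 634 to 2026 CPM in the 3 libraries low in Gm23935 and from 12026 to 16988 CPM in the others. In the TPM table it ran from 16.2 to 28.4 TPM over all libraries.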
